A study of Mus musculus with 12 samples.

Results

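The genes followed here are 34 genes of endoplasmic reticulum (ER) folding and of the unfolded protein response, taken by name from a fixed list. They were read in mouse islet cells, in 7 hormone classes of single cells and in 5 bulk libraries of Ppy-expressing and 3 of somatostatin-expressing cells. A further 6 columns of the bulk table were left out. All 34 were listed in both tables, of 31055 gene symbols in the single-cell files and 45808 in the bulk table. They comprise 8 sensors and transcription factors, 9 chaperones and co-chaperones, 5 oxidative folding enzymes, 2 lectin chaperones, 7 genes of ER-associated degradation and 3 genes of translocation and signal cleavage. The question was how their transcripts relate to which hormone a cell makes, how much of its RNA is hormone mRNA and how many molecules were counted in it.

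Islet endocrine cells push large amounts of a few prohormones through the ER, where chaperones bind the nascent chains, disulphide isomerases pair their cysteines and misfolded chains are retrotranslocated and degraded. When unfolded protein accumulates, the membrane sensors IRE1 (Ern1), PERK (Eif2ak3) and ATF6 signal through spliced Xbp1, through Atf4 and its target Ddit3, and through cleaved ATF6, and these factors induce much of the folding machinery. Proinsulin carries disulphide bonds, and β-cells are a textbook case of a cell type that depends on this response.

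The single cells came from 2-month-old Ppy-YFPi mice (Ppy-rtTA; TetO-Cre; R26-YFP, mixed background), in which doxycycline at 1 mg/ml in the drinking water, begun 1 month earlier, marks Ppy-expressing cells with YFP. In this line rtTA is knocked into the Ppy locus, so that labelled cells had lost 1 Ppy allele, and islet cells of several animals were pooled in each of 2 experiments and sorted into a YFP+ and a YFP- library. Bulk RNA came from YFP+ cells of Ppy-rtTA;TetO-Cre;R26-YFP mice (5 libraries, named γ here) and from YFP+ cells of Sst-Cre;R26-YFP mice (3 libraries, named δ), at 2 months and with the same doxycycline entry in their labels. The γ reporter marks cells that expressed Ppy under doxycycline, bihormonal cells included, although the paper found that not all Ppy-expressing cells were labelled.

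Of 5982 cells in the 4 single-cell libraries, 120 were set aside as doublets and 1453 lay in clusters led by genes of other cell types. Among the remaining 4409 endocrine cells, 3967 fell into 7 hormone classes, and the ER genes took no part in the clustering. Total UMIs per library (unique molecular identifiers, 1 per counted mRNA molecule) ran from 10683494 to 18330975, and 20 cell barcodes occurred in more than 1 library. Class and library were tied: 1335 Ppy+ cells were from YFP+ and 8 from YFP- libraries, whereas all 618 Gcg+ and 237 Sst+ cells were from YFP- libraries, as were 517 Ins2+ cells, with 1 more from a YFP+ library. Their markers fitted the names. Mafa was at 353 and 302 CPM in the Ins2+ cells of experiments 1 and 2, Irx2 at 67.2 and 58.4 CPM in Gcg+ cells, Hhex at 137 and 163 CPM in Sst+ cells and Tspan8 at 494.5 and 428 CPM in Ppy+ cells, each below 40 CPM in the other 3 single-hormone classes except for Tspan8 in Sst+ cells (189 and 126 CPM). CPM here means counts scaled to a common library size with TMM, which sets the bulk of genes level between samples and is therefore nearly blind to the share taken by hormone mRNA.

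Promoter sequence was available for 29 of the 34 genes (30 windows of 250 bases before to 50 after the start, RefSeq, GRCm38.p6). Atf6, Derl1, Hyou1, Manf and Sec11c had none in the set used. The ER stress element, CCAAT and CCACG separated by 9 bases on either strand, is the letter pattern to which ATF6 binds together with NF-Y, and it stood in the windows of 10 genes: Calr, Canx, Creld2, Derl3, Dnajc3, Ero1lb, Hsp90b1, Hspa5, Pdia6 and Syvn1. Of all 32851 promoter windows, 39 held it (0.119%). The related element II, ATTGG and CCACG separated by 1 base, was found in Dnajb11 and Herpud1 and in 12 windows in all (0.0365%). TGACGTGG, a core bound by XBP1 and ATF6, was in none of the 30 windows and in 0.676% of all windows. Several of these genes are known as ER stress genes through this element, so the share is a property of the list and not a result of the expression data, and a match of letters does not show that a factor is bound. Hspa5 is shown because it is the standard target of the response, and Ero1lb and Calr because both were called higher in Ins2+ cells than in each other single-hormone class. Dnajb11 and Herpud1 are shown because they hold element II, while Herpud1 followed a different class pattern. The Hsp90b1 window holds 2 copies of the ER stress element and is not shown, and Hsp90b1 was not called higher in Ins2+ cells. The 5 windows chosen are given below. They run 5′ to 3′ on the gene's strand with the paired letters of the elements in capitals (on the opposite strand, CGTGG and ATTGG). In GRCm38.p6 they lie at chr2:34771840-34772139 (+, Hspa5), chr13:12565633-12565932 (+, Ero1lb), chr8:84846882-84847181 (-, Calr), chr16:22857595-22857894 (+, Dnajb11) and chr8:94386179-94386478 (+, Herpud1).
Hspa5: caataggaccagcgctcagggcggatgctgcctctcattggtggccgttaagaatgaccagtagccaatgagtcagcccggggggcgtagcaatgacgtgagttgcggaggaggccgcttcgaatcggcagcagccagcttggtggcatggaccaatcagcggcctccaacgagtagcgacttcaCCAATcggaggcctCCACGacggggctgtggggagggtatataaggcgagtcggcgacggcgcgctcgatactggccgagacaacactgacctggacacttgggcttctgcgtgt
Ero1lb: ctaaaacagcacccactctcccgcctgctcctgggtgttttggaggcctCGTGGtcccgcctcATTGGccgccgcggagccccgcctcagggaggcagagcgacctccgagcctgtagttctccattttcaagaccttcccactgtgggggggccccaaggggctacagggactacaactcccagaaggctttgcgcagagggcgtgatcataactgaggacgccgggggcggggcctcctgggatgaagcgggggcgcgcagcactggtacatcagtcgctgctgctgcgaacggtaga
Calr: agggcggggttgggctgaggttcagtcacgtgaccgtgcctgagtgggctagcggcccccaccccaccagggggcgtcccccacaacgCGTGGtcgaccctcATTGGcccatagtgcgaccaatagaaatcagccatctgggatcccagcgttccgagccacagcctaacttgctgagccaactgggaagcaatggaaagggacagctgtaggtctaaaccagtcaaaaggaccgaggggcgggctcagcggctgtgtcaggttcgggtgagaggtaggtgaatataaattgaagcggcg
Dnajb11: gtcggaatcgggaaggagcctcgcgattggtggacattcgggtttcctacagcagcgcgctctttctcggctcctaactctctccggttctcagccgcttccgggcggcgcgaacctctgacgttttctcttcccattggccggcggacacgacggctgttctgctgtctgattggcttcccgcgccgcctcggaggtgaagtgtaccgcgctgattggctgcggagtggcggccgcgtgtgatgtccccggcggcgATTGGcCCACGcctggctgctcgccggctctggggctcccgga
Herpud1: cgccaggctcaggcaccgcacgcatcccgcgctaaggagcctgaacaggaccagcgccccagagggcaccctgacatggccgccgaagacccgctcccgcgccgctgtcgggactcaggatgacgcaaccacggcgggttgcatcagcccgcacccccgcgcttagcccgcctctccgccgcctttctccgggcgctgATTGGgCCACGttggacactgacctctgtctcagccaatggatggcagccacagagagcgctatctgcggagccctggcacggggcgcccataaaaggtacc

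Ins2+ cells held the most ER transcripts per cell. A cell of this class carried on average 76.0 UMIs of the 34 genes in experiment 1 and 58.8 in experiment 2, against 25.4 and 20.7 in Ppy+ cells, 26.0 and 24.0 in Gcg+ cells and 19.9 and 13.3 in Sst+ cells. The same cells carried far more hormone mRNA. Hormone load, the share of a cell's UMIs from Ppy, Pyy, Gcg, Ins1, Ins2, Sst and Iapp, had a median of 75.2% and 70.7% in Ins2+ cells, 51.4% and 51.9% in Ppy+ cells, 32.5% and 32.8% in Gcg+ cells and 29.0% and 20.7% in Sst+ cells. Median total UMIs were 24120 and 12395 in Ins2+ cells and between 3112.5 and 7815 in the other 3 classes.

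The order of the classes therefore depended on the denominator. Per 10000 non-hormone UMIs, the 34 genes made up 127 and 149 UMIs in Ins2+ cells, 62.0 and 63.1 in Ppy+ cells, 66.5 and 56.1 in Sst+ cells and 45.2 and 45.7 in Gcg+ cells. Ins2+ cells stood apart on this scale, Ppy+ and Sst+ cells did not differ beyond their spread, and Gcg+ cells were lowest. Per 10000 UMIs of all genes, the values were 31.8 and 43.6 in Ins2+ cells, 46.1 and 43.3 in Sst+ cells, 29.9 and 30.2 in Gcg+ cells and 29.3 and 29.3 in Ppy+ cells. On that scale Ins2+ cells did not exceed Sst+ cells, and the value of their first experiment was near those of Gcg+ and Ppy+ cells. Load alone did not order the classes: Gcg+ cells had a higher load than Sst+ cells and fewer ER UMIs per non-hormone UMI.

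**Figure D1:**
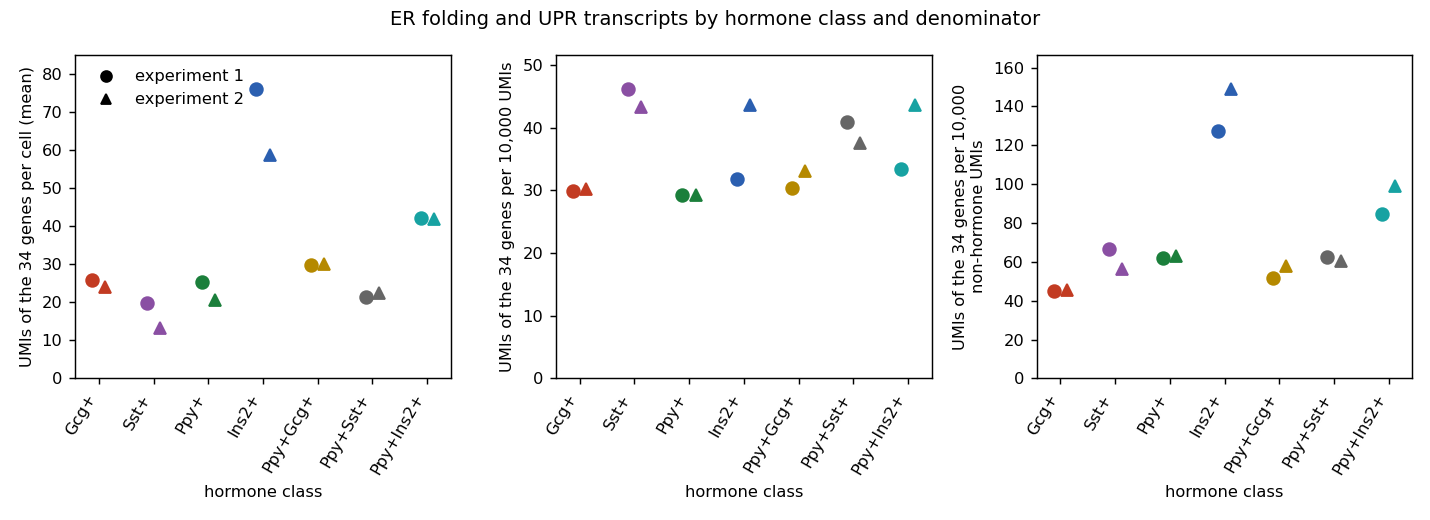
UMIs of the 34 ER genes per cell (left), per 10,000 UMIs of all genes (middle) and per 10,000 non-hormone UMIs (right), for 7 hormone classes; each point is the summed cells of 1 class in 1 experiment. Ins2+ cells are highest on the left and right (127 and 149 per 10,000 non-hormone UMIs), but not in the middle, where Sst+ cells reach 46.1 and 43.3.

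Differences between classes were tested on summed counts (14 sums, 7 classes in 2 experiments) with edgeR's quasi-likelihood test, with an experiment term. Calls needed an adjusted p of at most 0.05 over the 10416 genes tested and a change of more than 0.5 on the natural log scale (0.72 on log2). Of the 34 genes, 32 passed the filter on low counts; Trib3 (14 UMIs in all classes together) and Derl3 (100 UMIs) did not. The 2 experiments are pools of mice, and all classes come from the same 2 pools. With the experiment term, p-values rest on how far class differences vary between these 2 pools, estimated over all 14 sums. They do not measure the spread between animals.

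In Ins2+ against Gcg+ cells, 26 of the 32 genes were called higher and none lower, where 12% of all genes were called higher and 10.8% lower. Against Sst+ cells 21 were higher and none lower (8.14% and 7.49% of all genes), and against Ppy+ cells 20 were higher and 1 lower (14.2% and 12.4%). The median log2 difference of the 32 genes was 1.24, 1.05 and 0.86, beside -0.01, 0.03 and -0.01 over all genes. In all 3 comparisons 17 genes were called higher: Atf4, Atf6, Calr, Canx, Creld2, Derl1, Derl2, Dnajb11, Dnajc3, Ero1lb, Hspa5, Hyou1, Manf, P4hb, Sdf2l1, Sec11c and Sel1l. For 26 of the 34 genes both Ins2+ sums lay above all 6 sums of the other single-hormone classes, 24 of them among the 32 tested, where 12.6% of all 10416 tested genes did so. With the total UMIs of each sum as library size, in place of TMM, the median over all genes moved to -1.06, -1.45 and -0.65 and the calls became 7 higher and 1 lower (Gcg+), 2 higher and 7 lower (Sst+) and 5 higher and 1 lower (Ppy+). The median ER gene lay above that median by 1.30, 1.03 and 0.91, beside 1.26, 1.02 and 0.86 with TMM, so the statements on single genes below are relative to the bulk of non-hormone transcripts.

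**Figure D2:**
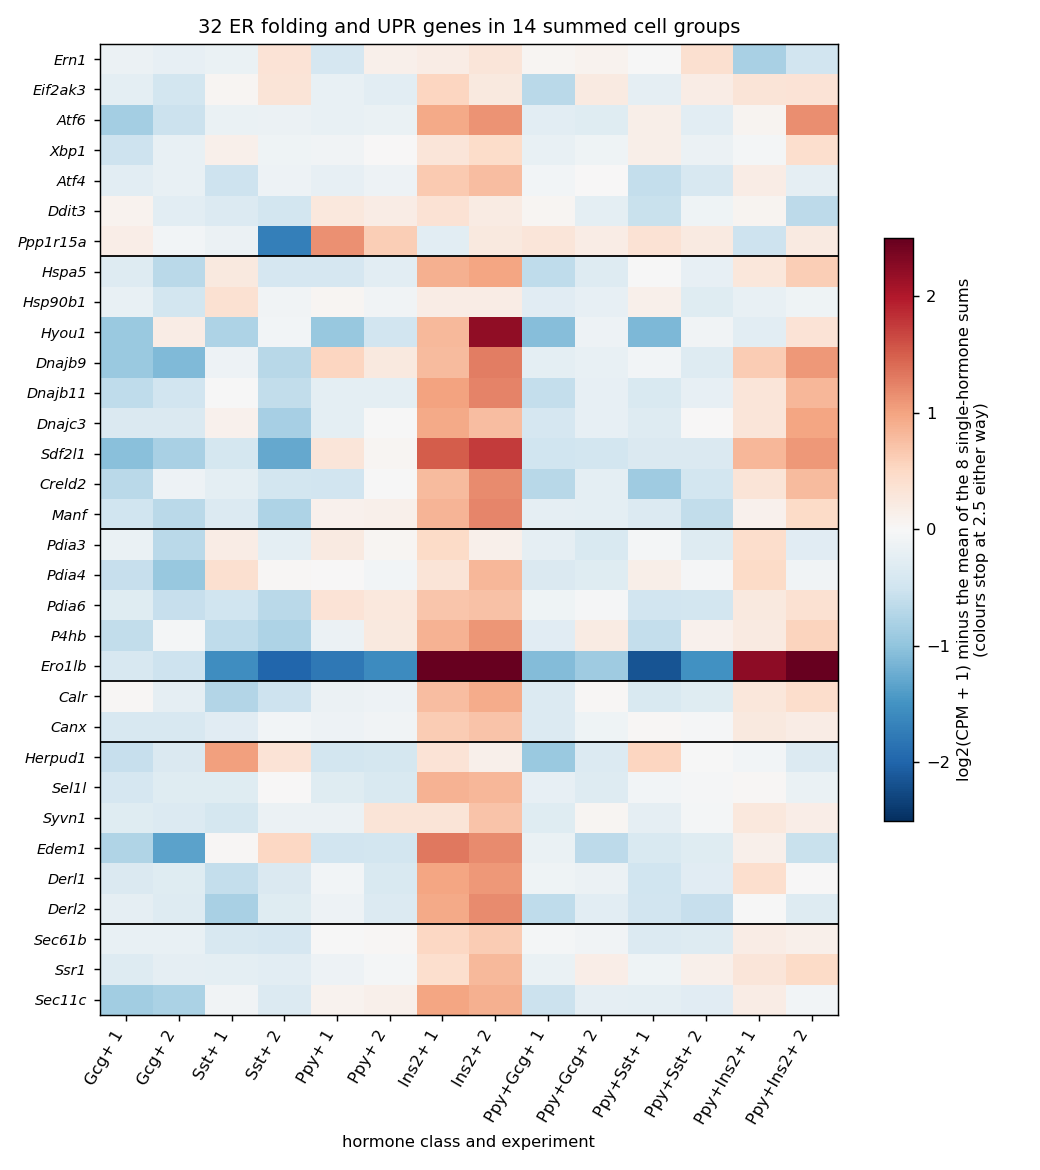
Expression of the 32 tested ER genes (rows, ordered by role, black lines between roles) in 14 class and experiment sums (columns), as log2(CPM + 1) minus the mean of the 8 single-hormone sums; colours stop at 2.5 either way. Both Ins2+ columns are red over most roles, Ero1lb exceeds the colour scale there, and Herpud1 and Ppp1r15a follow other patterns.

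Oxidative folding held the largest difference. Ero1lb, the ER oxidase that reoxidises disulphide isomerases and is known for its β-cell expression, was at 753 and 660.3 CPM in Ins2+ cells. In Gcg+ cells it was at 34.98 and 31.8, in Sst+ cells at 15.2 and 10.96, and in Ppy+ cells at 12.7 and 14.9 CPM. Ins2+ cells thus lay far above every other class, and Gcg+ cells above both Sst+ and Ppy+ cells. The log2 difference of Ins2+ cells was 4.41 ± 0.15 (SE) against Gcg+, 5.72 ± 0.22 against Sst+ and 5.69 ± 0.16 against Ppy+ cells (edgeR adjusted p from 5.904e-30 to 6.63e-24). It was also among the 10 leading genes of the Ins2+ cluster, although it took no part in forming it.

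The disulphide isomerases followed less steeply. P4hb, which pairs and reshuffles disulphides, was at 247 and 292 CPM in Ins2+ cells, 121 and 158.5 in Ppy+, 87.96 and 129.9 in Gcg+ and 86.2 and 78.6 in Sst+ cells, and it was higher by 1.34 ± 0.13, 1.69 ± 0.17 and 0.98 ± 0.12 against Gcg+, Sst+ and Ppy+ cells. Pdia6, another isomerase, was at 222.5 and 230.5 CPM in Ins2+ cells, 176 and 167 in Ppy+, 112 and 91.6 in Gcg+ and 97.6 and 85.9 in Sst+ cells. It was called between Ins2+ cells and both Gcg+ and Sst+ cells, and not against Ppy+ cells, where the difference was 0.39. Pdia4 was called against Gcg+ cells (1.23 ± 0.17), and Pdia3 in none of the 3 comparisons.

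Chaperones made up the broadest block, with 8, 8 and 7 of 9 called higher in Ins2+ cells against Gcg+, Sst+ and Ppy+ cells. Hspa5 (BiP), the Hsp70 of the ER lumen and the repressor of the 3 sensors, was at 459 and 496 CPM in Ins2+ cells, 198 and 155 in Gcg+, 186 and 208 in Ppy+, and 295.5 and 185 in Sst+ cells. Its differences were 1.43 ± 0.15, 1.27 ± 0.15 and 0.96 ± 0.16 against Gcg+, Ppy+ and Sst+ cells (edgeR adjusted p = 1.128e-10, 1.511e-09 and 1.62e-05). The 2 Sst+ sums differed by more than those of the other classes.

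Sdf2l1, which works with Hspa5 in a chaperone complex, was at 183 and 217.5 CPM in Ins2+ cells, 78.5 and 65.8 in Ppy+, 46.9 and 25.6 in Sst+ and 30.2 and 35.7 in Gcg+ cells. It was higher by 2.56 ± 0.15 against Gcg+, 2.36 ± 0.21 against Sst+ and 1.43 ± 0.13 against Ppy+ cells. Hyou1, an exchange factor of Hspa5, was at 82.1 and 217.5 CPM in Ins2+ cells, with a wide gap between experiments that also appeared in Ppy+ (23.5 and 32.9), Gcg+ (23.8 and 52.4) and Sst+ cells (26.6 and 43.9). Within each experiment Ins2+ cells were the highest. Dnajb9, a co-chaperone that hands unfolded chains to Hspa5 and holds IRE1 inactive, was at 264 and 372 CPM in Ins2+ cells, 222 and 180.1 in Ppy+, 139 and 93.2 in Sst+ and 79.8 and 70.1 in Gcg+ cells. It was called against Gcg+ (2.03 ± 0.16) and Sst+ cells (1.36 ± 0.18) and not against Ppy+ cells (0.61). Dnajb11 rose from 14.6 and 16.3 CPM in Gcg+ to 47.1 and 56.0 CPM in Ins2+ cells (1.71 ± 0.19), Creld2 from 18.7 and 27.6 to 53.6 and 70.3 CPM (1.44 ± 0.17), and Manf, a secreted ER stress factor, from 172 and 153 to 442 and 569 CPM (1.61 ± 0.14). Hsp90b1 was the exception among the chaperones, at 405 and 405 CPM in Ins2+, 364 and 334.5 in Ppy+, 310.4 and 257 in Gcg+ and 463 and 333 in Sst+ cells, and was called in none of the 3 comparisons.

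Of the 7 sensors and transcription factors tested, 3, 2 and 3 were called higher in Ins2+ cells. Atf6 was at 28.5 and 32.6 CPM in Ins2+ cells and between 7.47 and 12.8 CPM in the other 6 single-hormone sums (1.81 ± 0.24, 1.22 ± 0.34 and 1.24 ± 0.21 against Gcg+, Sst+ and Ppy+). Atf4 was at 97.7 and 107 CPM in Ins2+ cells and between 43.1 and 56.9 CPM in the rest (0.94 ± 0.14, 1.05 ± 0.19 and 0.87 ± 0.13). Xbp1 was at 107 and 119.8 CPM in Ins2+ cells, 95.1 and 80.4 in Sst+, 82.4 and 87.7 in Ppy+ and 60.8 and 76.4 in Gcg+ cells, and missed the fold threshold in all 3 comparisons. These counts do not separate spliced from unspliced Xbp1. Ddit3 (CHOP), the proapoptotic factor downstream of Atf4, was at 23.4 and 20.8 CPM in Ins2+, 21.8 and 20.65 in Ppy+, 19.4 and 14.9 in Gcg+ and 13.9 and 12.8 in Sst+ cells and was not called. Eif2ak3 and Ern1 were each below 26 CPM in every single-hormone sum.

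Ppp1r15a (GADD34), the phosphatase subunit that reverses eIF2α phosphorylation, went the other way. It was at 32.4 and 22.1 CPM in Ppy+ cells, 15.96 and 13.4 in Gcg+, 11.7 and 16.9 in Ins2+ and 12.7 and 3.65 in Sst+ cells, where its sums hold 10 and 2 UMIs. Ins2+ cells were lower than Ppy+ cells by a log2 difference of -1.21 ± 0.22. The immediate early genes of dissociation (Fos, Jun, Egr1 and 7 others, 10 in all) were also highest in Ppy+ cells. Their summed level was 1255 and 877 CPM in Ppy+ cells, 915 and 690.3 in Gcg+, 406 and 349 in Ins2+ and 419.8 and 509.8 in Sst+ cells. In experiment 2 the other classes stood in another order than for Ppp1r15a. The part of these 10 genes in the result was not tested.

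Genes of ER-associated degradation were called higher in Ins2+ cells in 6, 3 and 5 of the 6 tested, against Gcg+, Sst+ and Ppy+ cells. Edem1, which takes glycoproteins out of the folding cycle, was at 22.98 and 20.8 CPM in Ins2+ and at 4.75 and 2.83 CPM in Gcg+ cells (2.49 ± 0.31). Derl2, a derlin of the retrotranslocation channel, was at 62.0 and 72.9 CPM in Ins2+ cells and between 17.8 and 29.0 CPM in the other sums. Herpud1, which assembles the degradation complex, had its highest level elsewhere, at 124 and 76.7 CPM in Sst+ cells, 76.4 and 66.4 in Ins2+, 43.8 and 44.4 in Ppy+ and 40.1 and 47.1 in Gcg+ cells. Sst+ cells exceeded Gcg+ cells (log2 difference Gcg+ minus Sst+ -1.25 ± 0.21) and Ppy+ cells (Ppy+ minus Sst+ -1.23 ± 0.20), and Ins2+ cells exceeded both too (0.75 ± 0.18 and 0.74 ± 0.17).

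Of the translocation genes, Sec11c, a catalytic subunit of signal peptidase, was at 283 and 267 CPM in Ins2+ cells, 152 and 157 in Ppy+, 134 and 113 in Sst+ and 77.8 and 82.1 in Gcg+ cells. It was higher in Ins2+ cells by 1.79 ± 0.13, 1.15 ± 0.15 and 0.84 ± 0.12 against Gcg+, Sst+ and Ppy+. The lectin chaperones Calr and Canx, which hold glycosylated chains, were both called in all 3 comparisons. For Calr the differences were 0.94 ± 0.13, 1.48 ± 0.16 and 0.97 ± 0.13.

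Further genes of the ER were read from a second list of 86, 78 of which were tested in the classes. In Ins2+ cells 34 of these were called higher and 0 lower against Gcg+, 28 and 0 against Sst+, and 18 and 1 against Ppy+ cells. The largest were Nupr1, a stress-induced cofactor (4.596, 4.37 and 4.84), Bhlha15, a secretory cell factor (3.38 against Gcg+), Qsox1, a sulphydryl oxidase (2.82 against Sst+) and Asns, an Atf4 target (1.87 against Ppy+). Translocon genes contributed 12, 9 and 4 calls of 16.

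Genes of other cell types were present in all classes. The B-lineage list had 14 of 15 genes detected in Ins2+ cells and a summed level of 711 and 814 CPM, against 464 and 528 in Gcg+, 379 and 453 in Sst+ and 17.99 and 18.97 in Ppy+ cells. Most of it was Igkc (2926 UMIs in Ins2+ and 89 in Ppy+ cells), and Ms4a1, a defining B-cell marker, had 1 UMI in Ins2+ cells and 0 in Sst+ and Ppy+ cells. Cd79a, of the same list, went the other way, with 271 and 79 UMIs in Ins2+ cells of experiments 1 and 2. It had 6 and 8 UMIs in Gcg+, 2 and 1 in Sst+ and 4 and 2 in Ppy+ cells. Acinar genes summed to 426 and 227 CPM in Ins2+, 400.1 and 298 in Gcg+, 480.6 and 418 in Sst+ and 151 and 109.99 in Ppy+ cells. The part of these transcripts, which can reach droplets as free RNA, in the differences between classes was not tested.

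Among the 3 other single-hormone classes the differences were few. In Ppy+ against Gcg+ cells 6 genes were called higher and 1 lower (6.07% and 6.82% of all genes). The higher genes were Dnajb9 (1.42 ± 0.15), Sdf2l1 (1.13 ± 0.15), Sec11c (0.95 ± 0.13), Ppp1r15a (0.89 ± 0.20), Pdia6 (0.75 ± 0.12) and Pdia4 (0.73 ± 0.16), and Ero1lb was lower (-1.28 ± 0.19). The median of the 32 genes was 0.29, beside -0.02 over all genes, and 29 of the 32 were above 0. In Ppy+ against Sst+ cells 4 were higher and 1 lower (5.28% and 6.72% of all genes): Ppp1r15a (1.62 ± 0.38), Sdf2l1 (0.93 ± 0.22), Pdia6 (0.89 ± 0.16) and Dnajb9 (0.76 ± 0.18) were higher and Herpud1 lower. These shares of the members were 4 of 32 and 1 of 32, not far from the background. Under total-UMI scaling this comparison gave 0 higher and 14 lower. In Gcg+ against Sst+ cells Ero1lb was higher (1.31 ± 0.33) and Herpud1 and Pdia4 (-1.01 ± 0.22) lower (5.49% of all genes higher, 6.36% lower). Every Ppy+ cell sum compared with another single-hormone class also compares a YFP+ with a YFP- library, and class and library cannot be told apart there.

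Of the second list, 17 genes were higher and 1 lower in Ppy+ against Gcg+ cells, and 9 and 1 in Ppy+ against Sst+ cells. Fkbp11, a prolyl isomerase of the ER, led the Ppy+ side against Gcg+ cells (2.04) and was also higher against Sst+ cells (1.97). Wfs1, an ER membrane protein mutated in Wolfram syndrome, was lower in Gcg+ than in Sst+ cells (-2.10) and lower in Ppy+ than in Sst+ cells (-1.001).

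The bihormonal cells, defined by hormone thresholds in any endocrine cluster, were set against Ppy+ cells. Most Ppy+Gcg+ and Ppy+Ins2+ cells came from YFP+ libraries (663 and 101, with 87 and 11 from YFP- libraries). Of the Ppy+Sst+ cells 254 came from YFP+ and 135 from YFP- libraries, so class and library are partly tied there. Ppy+Ins2+ cells (73 and 39 cells) lay between Ppy+ and Ins2+ cells, with 42.3 and 42.03 ER UMIs per cell, 84.6 and 99.0 per 10000 non-hormone UMIs and a median load of 60.2% and 53.4%. In these cells 5 genes were called higher and 1 lower (4.46% and 2.34% of all genes). Ero1lb was at 222.5 and 297 CPM, against 12.7 and 14.9 CPM in Ppy+ cells (4.19 ± 0.19), and the others were Creld2 (0.81 ± 0.24), Hspa5 (0.77 ± 0.16), Sdf2l1 (0.77 ± 0.18) and Dnajc3 (0.74 ± 0.19). Ppp1r15a was lower (-1.23 ± 0.39), with 7 and 6 UMIs in the Ppy+Ins2+ sums of experiments 1 and 2. No member was called lower with DESeq2, in YFP+ libraries alone or without the experiment term. Of 78 tested genes of the second list, 3 were higher and 2 lower in Ppy+Ins2+ cells, shares near those of all genes. Nupr1 (3.20) and Wfs1 (1.67) were among the 3 higher. In Ppy+Gcg+ cells the only call was Ero1lb, which was higher (0.73 ± 0.20; 2.01% of all genes were higher, 0.989% lower). In Ppy+Sst+ cells Herpud1 was higher (0.72 ± 0.18) and Pdia6 lower (-0.78 ± 0.13; 5.39% of all genes were higher, 2.46% lower). Medians over the 32 genes were -0.15 and -0.13 there. The second list gave 0 higher and 1 lower in Ppy+Gcg+ cells, and 1 higher and 5 lower in Ppy+Sst+ cells. The call of Ero1lb in Ppy+Gcg+ cells was absent with DESeq2 and in YFP+ libraries alone, and Herpud1 in Ppy+Sst+ cells lay at the fold threshold itself, so that 1 gene, lower, was called there with DESeq2 or in YFP+ libraries alone. Doublets that escaped removal and free Ins2 RNA would also give cells with both hormones, and their part was not tested.

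Within each single-hormone class, the summed level of the 34 ER genes was higher in cells with more hormone mRNA. Cells of a class and experiment were split at the median load inside 5 bins of equal non-hormone UMIs, because load and the ER share both have the non-hormone count in their denominator. Median load was 57.95% and 58.1% in the high-load and 43.8% and 44.8% in the low-load groups of Ppy+ cells, and 78.0% and 74.9% against 71.7% and 63.7% in Ins2+ cells. At matched non-hormone UMIs the high-load groups also held more total UMIs. Their medians were 9229.5 and 7046.5 against 6503.5 and 5257.5 in Ppy+ cells, and 28152 and 14636 against 21184.5 and 9261.5 in Ins2+ cells. This split therefore does not separate load from total UMIs. The ER genes were higher in the high-load group in 8 of 8 class and experiment pairs, by a ratio of 1.09 to 1.19 (median 1.14). In Ins2+ cells the sum went from 117 and 136 to 137 and 161 UMIs per 10000 non-hormone UMIs, in Ppy+ cells from 57.8 and 59.96 to 65.99 and 66.5, in Gcg+ cells from 43.1 and 42.8 to 47.4 and 48.6, and in Sst+ cells from 63.9 and 52.3 to 69.4 and 60.2. These values are descriptions of a sum, with no test.

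**Figure D3:**
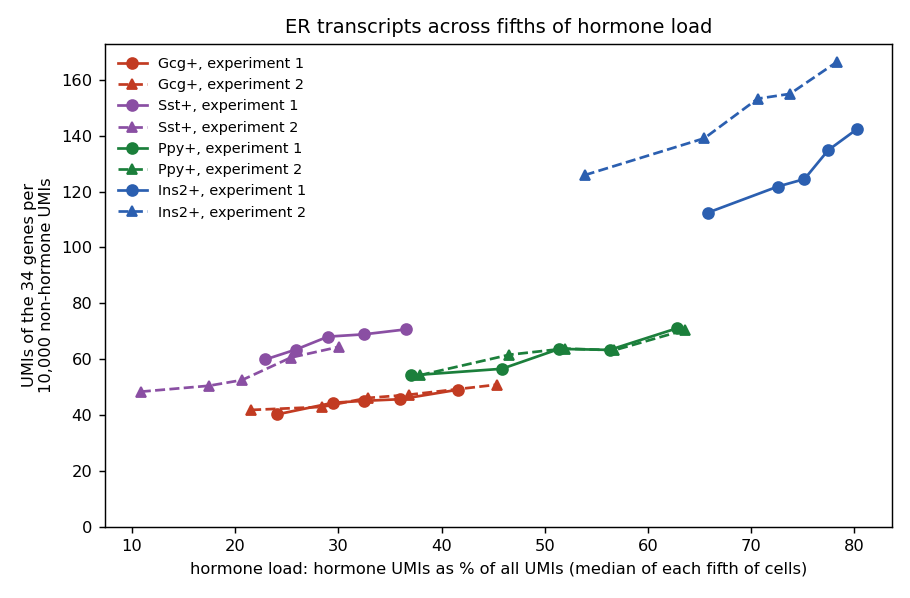
ER transcripts per 10,000 non-hormone UMIs (vertical axis) in 5 equal groups of cells ordered by hormone load (horizontal axis, median load of the group in %), for 4 single-hormone classes in 2 experiments. In 6 of the 8 lines every step goes up; the lines of different classes do not lie on 1 curve, and each Ins2+ group of experiment 2 holds under 20 cells.

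Gene by gene, 9 of 32 tested members were called higher at high load and 0 lower (edgeR, 8 blocks of class and experiment, hormone genes left out, adjusted p of at most 0.05), where 3.26% of 7526 genes were called higher and 0.691% lower. Ero1lb had the largest difference (0.57 ± 0.08), with the high-load above the low-load group in 6 of 8 pairs. Within single classes it was called in Ins2+ cells alone (0.66 ± 0.07), with 0.49 ± 0.22 in Gcg+, 0.0051 ± 0.27 in Ppy+ and -0.0048 ± 0.69 in Sst+ cells, and the test of a difference between classes did not call it (edgeR adjusted p = 0.8583). Its level without hormone genes ran from 23.2 to 1116 CPM in the low-load groups (median 41.0) and from 14.7 to 1728 in the high-load groups (median 52.6), so the spread between classes was far larger than that between load groups. Manf was higher in 8 of 8 pairs (0.45 ± 0.06), from 239 to 884 CPM in the low-load groups (median 370) and from 316 to 1304 in the high-load groups (median 498). Sec11c (0.36 ± 0.07) was higher in 7 of 8 pairs and Dnajb9 (0.34 ± 0.07), Sdf2l1 (0.31 ± 0.09) and Pdia6 (0.28 ± 0.07) in 6 of 8. The others called were Sec61b, of the translocation channel (0.28 ± 0.05), Dnajc3 (0.27 ± 0.08) and Pdia3 (0.27 ± 0.06). All 9 are chaperones, oxidative folding enzymes or translocation genes.

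None of the 7 tested sensors and transcription factors and none of the 6 degradation genes were called with load by edgeR, and their smallest unadjusted p values were 0.1367 (Atf6) and 0.09503 (Sel1l). Xbp1 had a difference of 0.00, Ddit3 of 0.02 and Atf4 of 0.12, and Hspa5 was not called either (0.06), with the high-load above the low-load group in 5 of 8 pairs. The second list gave 22 calls of 75, all higher, led by Fkbp11 (0.88), Ssr4 of the translocon-associated complex (0.55) and Dad1 of the oligosaccharyltransferase (0.46). With experiment 1 alone 5 members were called with load, and with experiment 2 alone 6. Within single classes 5 were called in Ppy+, 1 in Gcg+, 6 in Ins2+ and 0 in Sst+ cells, where 2.56%, 0.465%, 0.811% and 0.0399% of all genes were called higher. The median log2 difference of the 32 genes was 0.09, 0.14, 0.15 and -0.03 in these classes. A difference of the load effect between classes was called for 0 members by edgeR (F-test over 4 classes, 0.359% of all genes). The smallest adjusted p was 0.365 (Hsp90b1) and 4 members had an unadjusted p under 0.05. The smaller sums of Sst+ cells limit that test.

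A second split was made by total UMIs at matched load, and no test compared it with the split by load. Cells split at the median of total UMIs inside 5 load bins gave 2 members called higher and 0 lower of 30 tested, Pdia6 (0.25 ± 0.07) and Calr (0.25 ± 0.07), where 0.323% of 6816 genes were called higher and 0.558% lower. The summed ER share was higher in the group with more UMIs in 6 of 8 pairs (ratios from 0.97 to 1.19, median 1.07). With DESeq2, or without experiment 2, no member was called, and without experiment 1 there was 1 higher and 1 lower. Of the second list Fkbp11 (0.78) and Ssr4 (0.33) were called. From cell to cell, Spearman's rho between load and the ER share of non-hormone UMIs lay between 0.16 and 0.36 in the 8 class and experiment groups (89 to 698 cells each). Between total UMIs and that share it lay between -0.01 and 0.34. These correlations share the counts of a cell and are given as a description, and in cells with about 20 ER UMIs they are dominated by counting noise.

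The bulk libraries give a second reading of γ against δ cells, from separate animals and with full-length chemistry. They held 14633838 to 31784878 (γ) and 7641916 to 11773598 reads (δ). γ libraries were sequenced as read pairs and δ libraries as single reads on another instrument, and this cannot be told apart from cell type. All 34 genes passed the filter of at least 5 counts on average. In bulk, fewer cells of a type and less RNA per cell cannot be told apart. Sst was at 60259 to 87413 CPM in δ and 7392 to 12540 CPM in γ libraries, and Ppy at 95177 to 123905 CPM in γ and 9400 to 15506 CPM in δ libraries, in which Ppy is thus not absent. Acinar genes (20 of 20 detected) summed to 115194, 108873 and 27522 CPM in δ libraries 1 to 3 and to between 2896 and 17301 CPM in γ libraries. Acinar cells are rich in ER genes, and their part in the differences was not tested.

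Of the 34 genes, 7 were called higher in γ and 3 higher in δ (edgeR quasi-likelihood test, adjusted p of at most 0.05, log2 difference of at least 1), where 20.7% of 17926 genes were called higher in γ and 14.2% lower. The ranges of γ and δ did not overlap for 19 genes, 12 with γ and 7 with δ higher (35.3% and 20.6% of the 34), where 27.8% and 26.5% of all 17926 genes had such ranges. The 7 of 34 called higher are a share near that background, and the median of the 34 was 0.09, beside -0.05 over all genes. With upper-quartile scaling, which moves that overall median to -0.35, the split was 4 higher and 6 lower.

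**Figure D4:**
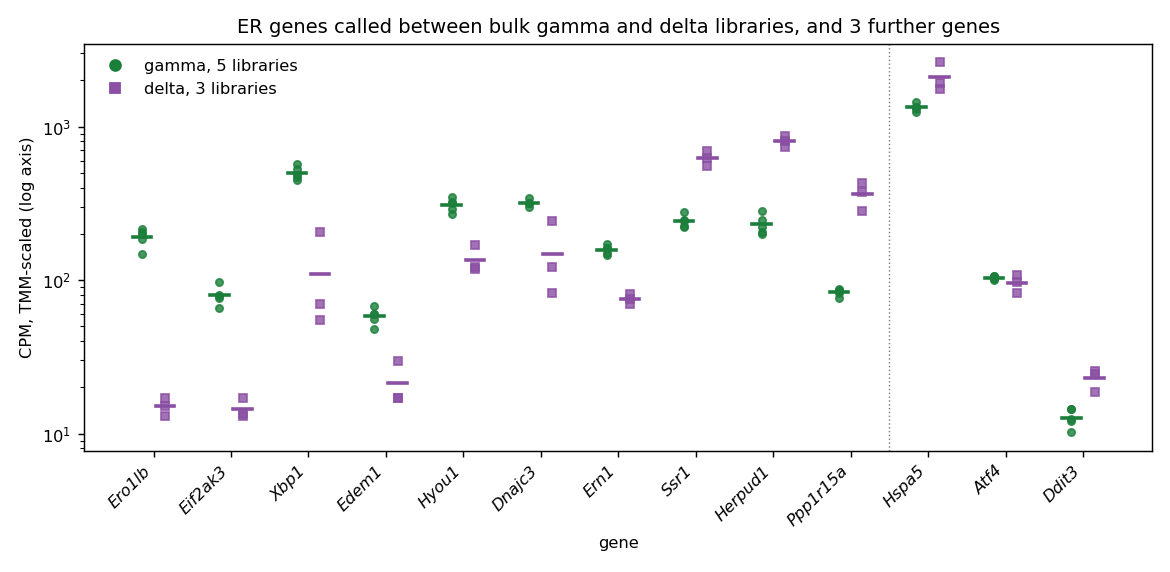
TMM-scaled CPM (log axis) of the 10 ER genes called between 5 γ and 3 δ bulk libraries and, right of the dotted line, of Hspa5, Atf4 and Ddit3; points are libraries and short lines are means. Ero1lb, Eif2ak3 and Xbp1 lie higher in every γ library, and Herpud1, Ssr1 and Ppp1r15a higher in every δ library.

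Of the 8 sensors and transcription factors, 3 were called higher in γ and 1, Ppp1r15a, lower. Eif2ak3, which phosphorylates eIF2α, was at 78.7, 76.4, 65.5, 97.3 and 79.9 CPM in γ libraries 1 to 5 and at 17.2, 13.4 and 13.1 CPM in δ libraries. The groups did not overlap and the log2 difference was 2.46 ± 0.16 (edgeR adjusted p = 5.831e-07). Xbp1 was at 470, 485, 574, 527 and 451 CPM in γ and at 70.2, 54.6 and 205.5 CPM in δ libraries (2.19 ± 0.39). δ 3 lay well above δ 1 and δ 2, and with δ 3 as the only δ library the difference was 1.26. Ern1 was at 145 to 171 CPM in γ and 69.6 to 80.9 CPM in δ libraries (1.07 ± 0.10), and it fell short of the threshold of 1 with upper-quartile scaling (0.78) and with δ 3 as the only δ library (0.94). Atf6 (101.6 ± 11.6 CPM, SD, n = 5, and 98.5 ± 17.2, n = 3) and Atf4 (103.6 ± 2.8 and 95.3 ± 13.0 CPM) overlapped between groups and were not called. Ddit3 was lower in every γ library (10.2 to 14.4 CPM) than in every δ library (18.7 to 25.5 CPM), with a difference of -0.85 that missed the threshold of 1.

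Ero1lb again differed most, at 199, 205.5, 147, 186 and 214 CPM in γ and 16.9, 13.1 and 15.05 CPM in δ libraries (3.67 ± 0.17). In the same libraries Ins2 was at 5489 to 17383 CPM in γ and 807 to 2158 CPM in δ, and the summed β-cell markers at 295 to 441 and 104 to 119 CPM, and their part in the Ero1lb difference was not tested. Hyou1 (269 to 350 CPM in γ, 118 to 169 in δ; 1.19 ± 0.15), Edem1 (48.1 to 68.2 and 16.9 to 29.6 CPM; 1.47 ± 0.20) and Dnajc3, an inhibitor of PERK that acts as a co-chaperone (298 to 340 and 81.7 to 242 CPM; 1.10 ± 0.28), completed the γ side. Hyou1 (0.90 and 0.85) and Dnajc3 (0.82 and 0.38) were not called with upper-quartile scaling or with δ 3 as the only δ library, and Dnajc3 also lost its call when δ 1 or δ 2 was left out. On the δ side, Herpud1 was at 221, 245, 283.5, 199 and 205 CPM in γ and 863.5, 731 and 806 CPM in δ libraries (-1.79 ± 0.14). Ppp1r15a was at 85.0, 77.0, 82.5, 85.9 and 87.6 CPM in γ and 377, 283 and 430 CPM in δ libraries (-2.12 ± 0.13), and Ssr1, of the translocon-associated complex, at 221 to 277 and 549 to 695 CPM (-1.37 ± 0.12). Dissociation genes summed to 2692 to 4521 CPM in γ and 4015 to 6331 CPM in δ libraries, and heat-shock genes to 600 to 1114 and 2738 to 3888 CPM. Their part was not tested. Hspa5 was at 1235 to 1448 CPM in γ and 1767, 1926 and 2614 CPM in δ libraries, without overlap, at -0.66 ± 0.15 below the fold threshold.

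Single cells and bulk gave different genes for γ against δ. Of the 32 genes tested in both, 15 had the same sign and 2 were called in both: Herpud1, lower on the γ side in each (-1.23 and -1.79), and Ppp1r15a, which was higher in Ppy+ than in Sst+ single cells (1.62) and lower in γ than in δ bulk libraries (-2.12). Ero1lb (0.03 in single cells, 3.67 in bulk), Eif2ak3 (-0.44 and 2.46) and Xbp1 (-0.07 and 2.19) were called in bulk and not in single cells, where the Sst+ sums hold 7 and 6 UMIs of Eif2ak3. The bulk γ libraries include bihormonal cells, which the Ppy+ class does not, and Gcg, the α-cell hormone, was at 46784 to 94384 CPM in γ and 1346 to 5781 CPM in δ libraries. The part of either was not tested, and no test of the difference between the assays was made.

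**Figure D5:**
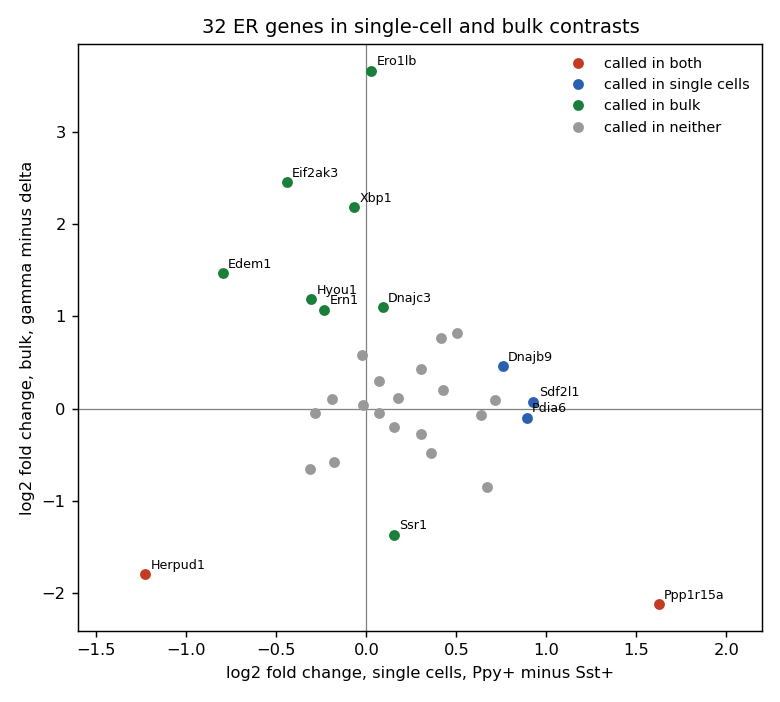
Log2 fold change of 32 ER genes in single cells (Ppy+ minus Sst+, horizontal) and in bulk (γ minus δ, vertical), coloured by where the gene was called. Herpud1 is lower on the γ side in both and Ppp1r15a lies in opposite directions.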

How the data were processed

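The single-cell libraries (10x Genomics v2) were deposited by the authors as raw UMI counts per gene and cell, made with Cell Ranger against mm10. The deposited bulk table holds raw read counts per gene, which the authors made with STAR 2.7.2b and HTSeq 0.9.1 (GRCm38.p6). Its 6 columns that matched no sample used here were left out. Genes are given by symbol. Members and lists were chosen with earlier results of these data known.

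Cells were clustered with Seurat 5.3.0 without the ER genes, clusters with 3 or more of their 10 leading genes on a list of another cell type were removed, and doublets were called from simulated neighbours (2% per experiment). Single-hormone classes were set by hormone thresholds at density minima and by cluster. Bihormonal classes were set by these thresholds alone, in any endocrine cluster, whereas the paper left out bihormonal cells outside its bihormonal cluster. Two-sided tests used edgeR 4.0.16 (R 4.3.3; TMM, filterByExpr for cells) with Benjamini-Hochberg adjustment over all genes; errors beside log2 differences are standard errors. Alternatives were DESeq2 1.42.0, other scalings, filters and thresholds, classes by threshold alone, cells thinned to 1000 UMIs and left-out experiments or libraries.

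On simulated counts for Ins2+ against Gcg+ cells (9942 genes), known 2-fold changes were recovered in 66% and 4-fold changes in 89.7% of genes. For γ against δ bulk libraries (17726 genes) these shares were 4% and 77.4%, and for the split by total UMIs (6511 genes) 24% at 1.25-fold and 62.9% at 1.5-fold. A 2-fold change equals the log2 threshold of 1 set for bulk calls. Members named with values were those called in most of the 6 comparisons between single-hormone classes (up to 12), the 6 with the largest difference among those called in a comparison, and always Hspa5, Xbp1, Atf4 and Ddit3; the others named were chosen after their values were seen. Of the second list, the 3 genes called with the largest difference in each direction could be named. GRCm38.p6 promoter windows are from RefSeq.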

Additional observations from a re-analysis of the deposited data

Results flagged for a closer look

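In the 5 γ bulk libraries, 2 of the 34 genes had 1 library set far apart from the other 4 relative to the range of the group, and chance alone sets about 5% of such groups apart. Both were in γ 2. Canx was at 872 CPM there and between 694 and 715 CPM in the others. Sec61b was at 134.64 CPM there and between 149 and 152 CPM in the others. Neither gene was called between γ and δ libraries.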

How the results depend on the processing

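With total UMIs as library size in place of TMM (chosen after seeing the data), the ER genes called between classes became 8 (Ins2+ against Gcg+), 9 (Ins2+ against Sst+, 7 of them lower), 6 (Ins2+ against Ppy+), 9 (Gcg+ against Sst+), 4 (Ppy+ against Gcg+), 14 (Ppy+ against Sst+, all lower) and 8 (Ppy+Sst+ against Ppy+, all higher). That scaling moves all genes by the hormone share, as its medians show; for the other changes below the cause was not tested. With cells thinned to 1000 UMIs, 17 were called for Ins2+ against Gcg+, 11 each for Ins2+ against Sst+ and against Ppy+, 3 for Ppy+ against Sst+, and 1 each for Ppy+Gcg+ (lower), Ppy+Sst+ (higher) and Ppy+Ins2+ cells. With no fold threshold, 7 (Gcg+ against Sst+), 9 (Ppy+ against Sst+), 7 (Ppy+Gcg+, 6 lower) and 6 (Ppy+Sst+) were called. The single call in Ppy+Gcg+ cells became 0 with DESeq2, in YFP+ libraries alone, and with classes by threshold alone, whether or not doublets were kept. In Ppy+Sst+ cells 1 gene (lower) in place of 2 was called with no filter on low counts, with hormone genes left out, with classes by threshold alone, with DESeq2 and in YFP+ libraries alone, and in Ppy+Ins2+ cells 2 with no filter on low counts.

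Without the replicate block (experiment) 0 were called in Ppy+Gcg+, 1 in Ppy+Sst+ and 3 in Ppy+Ins2+ cells, and no other count between classes moved by over 1.5 times. In bulk, libraries with the same number did not deviate together (correlations -0.1664, 0.0867 and -0.3121), and a replicate block left 10 genes called. For load, leaving out 1 experiment gave 5 to 6 calls. For total UMIs it gave 0 to 2 (0 without experiment 2, and 1 higher and 1 lower without experiment 1), DESeq2 gave 0, and comparing outer groups of cells without matching gave 7. In bulk, upper-quartile scaling called 10 genes, 6 of them lower, and a log2 threshold of 0.5 called 16. Leaving out 1 bulk library gave 9 to 11. Leaving out 1 experiment left the class comparisons with no residual degrees of freedom, so only values without a test were computed. The other 88 counts stayed within 1.5 times, but with δ 3 as the only δ library (chosen after seeing the data) the bulk calls were 4 higher and 4 lower. Depth limits the Sst+ and Ppy+Ins2+ sums, which each hold under 15 UMIs of Ern1, Eif2ak3 and Ddit3.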
